A study of Mus musculus with 67 samples.

Results

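The genes described here code for the subunits of the mitochondrial respiratory chain and of ATP synthase. They were taken from the retina and RPE tables by mouse gene symbol: Nduf, Sdh, Uqcr, Cox and Atp5 subunit names for the genes of the nucleus, and mt-Nd, mt-Co, mt-Cytb and mt-Atp names for those of mitochondrial DNA. The rule found 101 genes among the 18536 that either table held, 96 of 16930 in the retina table and all 101 of 16714 in the RPE table. In retina 80 of them were nuclear protein genes (35 of complex I, 4 of complex II, 8 of complex III, 16 of complex IV and 17 of complex V), 13 were mitochondrially coded and 3 were processed copies or pseudogenes. The RPE table held 81, 13 and 7 of these kinds. All 96 and all 101 passed the filter on low values. The rule reads symbols and no measured value, but it was chosen with earlier results of these data known.

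RNA-seq libraries came from the retina and the retinal pigment epithelium (RPE) of photosensitive mice that carry abca4-/- rdh8-/- on C57BL/6J, and every RNA library, the reference group included, had that genotype. The reference group NB had 6 retina and 5 RPE libraries. In each tissue the groups 1d and 3d had n = 4 and the group 6h had n = 3. The labels spell out neither NB, used here as the reference, nor the event from which the times run, and give no age. Each library pooled both eyes of 1 mouse. RPE cells were freed from the eyecup by agitation, so that RPE libraries can hold RNA of neighbouring tissue. Loss of ABCA4, which clears retinaldehyde from photoreceptor discs, and of RDH8, which reduces it, makes these mice sensitive to light. No library without the 2 deletions was among the RNA samples, so the values show differences between times in this genotype alone.

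Complexes I to IV carry electrons from NADH and succinate to oxygen and pump protons across the inner mitochondrial membrane (complex II transfers electrons without pumping), and complex V uses the proton gradient to make ATP. Mitochondrial DNA codes for core subunits of complexes I, III, IV and V, and the nucleus for all other subunits and the whole of complex II, so that assembly draws on both genomes. Photoreceptors pack mitochondria into their inner segments and consume much of the oxygen of the retina, while RPE cells oxidise fuels that reach them from the photoreceptors and the choroid.

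Transcription of nuclear subunit genes is commonly linked to NRF1, to the ETS-family factor GABP (also called NRF2), to estrogen-related receptors, to YY1 and to CREB. The stretches before the annotated gene are shown for 6 members, as examples of where the motifs of these factors can stand. These are the members that were lower in retina at 6h and hold 1 of the motifs outside the annotated gene span. Most member promoters that were searched (below) hold none of the motifs, so the 6 stretches shown are not typical of the family. Each is given 5′ to 3′ on the gene's strand, from RefSeq (GRCm38.p6), and ends at the last base before the gene, with the motif in capitals. The ETS letters CCGGAAGT, or their reverse complement ACTTCCGG, stand in Uqcrh (chr4:116075071-116075220, minus strand), Atp5h (chr11:115419920-115420069, minus strand) and Uqcr11 (chr10:80406822-80406971, minus strand). The CREB letters TGACGTCA stand in Ndufb2 (chr6:39592415-39592564, plus strand) and Uqcrfs1 (chr13:30545317-30545466, minus strand), and the NRF1 palindrome, the capitals of its line, in Atp5g2 (chr15:102671048-102671197, minus strand).
Uqcrh: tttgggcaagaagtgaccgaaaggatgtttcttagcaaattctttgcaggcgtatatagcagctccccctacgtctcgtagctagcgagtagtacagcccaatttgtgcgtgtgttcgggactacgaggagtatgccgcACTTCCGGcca
Atp5h: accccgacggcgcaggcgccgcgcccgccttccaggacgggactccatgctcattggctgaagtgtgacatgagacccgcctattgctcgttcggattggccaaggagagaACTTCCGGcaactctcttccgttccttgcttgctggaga
Uqcr11: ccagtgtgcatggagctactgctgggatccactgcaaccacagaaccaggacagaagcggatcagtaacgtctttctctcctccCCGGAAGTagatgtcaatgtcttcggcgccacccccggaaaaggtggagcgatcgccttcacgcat
Ndufb2: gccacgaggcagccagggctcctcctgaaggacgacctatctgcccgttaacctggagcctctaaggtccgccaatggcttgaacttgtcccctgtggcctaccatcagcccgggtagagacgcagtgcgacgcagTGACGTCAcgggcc
Uqcrfs1: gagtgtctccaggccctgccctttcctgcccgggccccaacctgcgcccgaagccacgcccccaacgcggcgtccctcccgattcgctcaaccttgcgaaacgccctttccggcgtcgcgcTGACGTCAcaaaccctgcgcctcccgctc
Atp5g2: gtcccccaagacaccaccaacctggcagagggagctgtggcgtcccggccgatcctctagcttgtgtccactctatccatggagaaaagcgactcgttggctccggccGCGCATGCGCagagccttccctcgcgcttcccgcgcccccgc

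Of the 81 nuclear members, 67 had a RefSeq promoter entry, and the 250 bases before the start were searched on both strands in these and in all 27025 genes. The NRF1 letters occurred in 4 of the 67 (5.97%) and in 0.877% of all genes, the CREB letters in 4 (5.97%) and 1.77%, and the ETS letters in 3 (4.48%) and 3.23%. The estrogen-related receptor letters TCAAGGTCA occurred in 1 (1.49%) and 0.422%, and the YY1 letters AAGATGGC in 1 (1.49%) and 1.83%. Member promoters also held more G and C (median 56.4%, against 52.4% over all genes). Of the 39 matched members that were lower in retina at 6h, 3 held the ETS letters, 3 the CREB letters, 1 the NRF1 letters, 1 the receptor letters and 0 the YY1 letters. Of the other 28 matched members, 0 held the ETS letters, 1 the CREB letters, 3 the NRF1 letters, 0 the receptor letters and 1 the YY1 letters. Among the 39, 1 CREB match and the receptor match lay inside the annotated span of their gene, and their stretches are not shown. Such a match is a string of letters and not a shown binding site, and Uqcr11, Uqcrfs1 and the choice of the 6 were made after the values were seen.

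Libraries fell into 2 depth sets. The retina 6h libraries and 2 NB libraries (NB A1 and NB A2) held 22.6 to 32.4 M counted reads and the other 12 held 9.45 to 15.2 M, while the RPE 6h libraries and NB A1 held 23.1 to 26.8 M and the other 12 held 11.5 to 14.4 M. Every 6h library is thus in the deeper set and every 1d and 3d library in the shallower one, and only NB libraries lie in both. Rod markers (14 genes such as Gnat1 and Sag) summed to 71517 to 79870 CPM in retina NB, 43012 to 51883 at 6h, 22892 to 39307 at 1d and 37799 to 43731 at 3d. Microglia and macrophage markers, 11 genes, summed to 32.3 to 49.1, 41.1 to 49.8, 47.6 to 61.9 and 147 to 172 CPM in the same groups. Muller glia markers summed to 4306 to 4797, 3527 to 4132, 2305 to 2645 and 5274 to 5758 CPM in these groups. Endothelial markers summed to 356 to 369, 361 to 398, 550 to 597 and 590 to 687 CPM. RPE libraries also held rod RNA (3518 to 16478 CPM summed) with 0 of 14 rod markers passing the test at any time against NB, and RPE markers were abundant in all of them. The latter did move: 12 RPE markers summed to 16588 to 28390 CPM in RPE NB, 10435 to 14876 at 6h, 9142 to 13747 at 1d and 17529 to 31514 at 3d, so that 6h and 1d lay below NB without overlap. In bulk tissue, fewer cells of a type and less RNA per cell cannot be told apart, and the part of cell makeup in the results below was not tested.

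At 6h most nuclear genes of the respiratory chain were lower in retina than in NB, by small amounts. Of the 80 nuclear protein genes 49 fell and 0 rose (limma, adjusted p under 0.05 over all 16926 genes tested), with a median difference of -0.18 on the log2(CPM + 0.5) scale, and 73 of 80 lay below 0. Over all members 51.0% were called lower, against 18.5% of all genes tested, and 3 members, all mitochondrially coded, were called higher, against 16.9%. In either direction 54.2% were called, against 35.4%. The median over all genes was 0.00. All 5 complexes took part: 21 of 35 nuclear members fell in complex I (median -0.20), 2 of 4 in complex II (-0.13), 5 of 8 in complex III (-0.17), 9 of 16 in complex IV (-0.20) and 12 of 17 in complex V (-0.18). In 43 of the 80 (53.8%) the 3 libraries of 6h did not overlap with the 6 of NB, against 34.6% of all genes tested. P-values measure the spread between these mice, since each library is 1 mouse.

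The depth sets bear on this count. Rescaled to library totals, 35 members fell and 3 rose at 6h (15.0% of all genes fell). With the depth set as a term in the fit 21 fell and 0 rose (12.9% of all genes fell), and within the deeper set, where only NB A1 and NB A2 serve as reference, 28 fell and 1 rose (16.7%). Without the 6h library 1, 34 fell and 0 rose. A group of 18 nuclear members was called lower under library totals, with the depth set as a term and within the set, and also with edgeR and DESeq2 on the recovered reads. All but Ndufa5 kept the call when each library was left out in turn. The 18 were Ndufa4, Ndufa5, Ndufa6, Ndufa10, Ndufb5, Ndufb8, Ndufs1, Sdha, Sdhc, Uqcrc2, Uqcrh, Cox6c, Cox7a2l, Cox7c, Atp5g2, Atp5h, Atp5l and Atp5s.

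**Figure D1:**
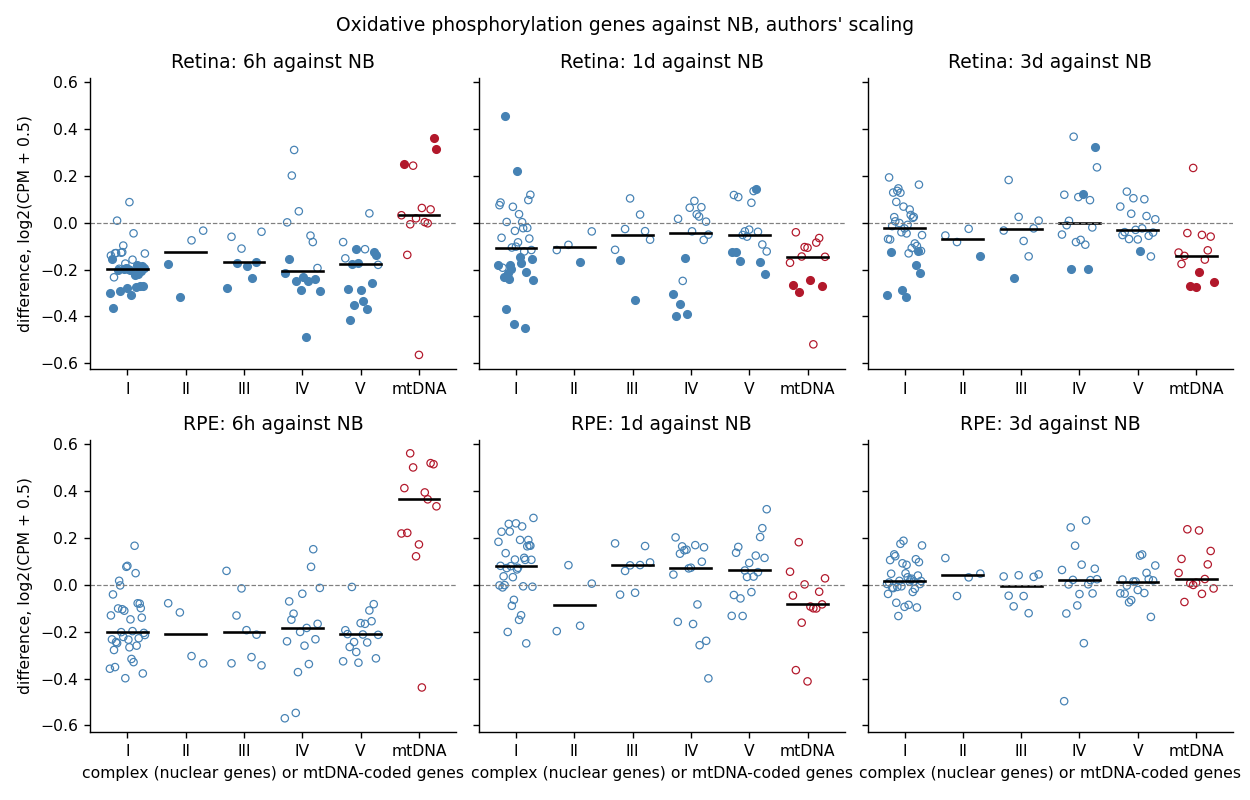
Difference from NB on the log2(CPM + 0.5) scale (y axis) of each member, by complex for nuclear genes and together for the 13 mitochondrially coded genes (x axis), in retina and RPE at 6h, 1d and 3d. Filled points passed the test (limma, adjusted p under 0.05), open points did not, and bars are medians; the retina 6h medians of the nuclear complexes lie between -0.20 and -0.13, while the negative retina medians at 1d and 3d turn positive when libraries are rescaled to their totals.

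In complex I, the NADH dehydrogenase through which most electrons enter, Ndufa10 was lower than NB at each of the 3 times. This supernumerary subunit measured 120.4 to 131 CPM (median 124, n = 6) in retina NB, 99.5, 102 and 101 CPM at 6h, 89.6, 97.9, 91.2 and 89.1 at 1d and 97.1, 97.7, 105 and 101 at 3d. Every library of the 3 times lay below every NB library. The log2 differences were -0.30 ± 0.04 (SE, adjusted p = 1.6e-05), -0.43 ± 0.04 (SE, adjusted p = 1.7e-08) and -0.31 ± 0.04 (SE, adjusted p = 4.1e-06), and they were -0.27, -0.26 and -0.15 after rescaling to library totals, still past the threshold.

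Other members of complex I were lower for a shorter time or depended on the fit. Ndufb2, a small membrane-arm subunit, differed by -0.20 ± 0.07 (SE, adjusted p = 0.042) at 6h, -0.37 ± 0.07 (SE, adjusted p = 0.00013) at 1d and -0.32 ± 0.07 (SE, adjusted p = 0.0008) at 3d, and under library totals only the 1d difference passed (-0.20, adjusted p = 0.02). Ndufa2 had one of the larger 6h differences, -0.36 ± 0.13 (SE, adjusted p = 0.03), which was -0.07 within the deeper set and no longer passed. In the opposite direction, Ndufa3, an accessory subunit, measured 28.7 to 40.6 CPM (median 33.3, n = 6) in NB, 29.5, 33.8 and 35.1 at 6h, 51.2, 44.9, 45.1 and 45.4 at 1d and 39.3, 36.0, 38.8 and 41.0 at 3d. All 4 libraries of 1d lay above every other retina library, with 0.46 ± 0.08 (SE, adjusted p = 6.4e-05) against NB, 0.62 under library totals and 0.38 within the shallower set. From 1d to 3d it fell by 0.26 on the log2 scale (SE 0.09, adjusted p = 0.033), a call lost when single libraries were left out. Ndufa8 also rose at 1d (0.22 ± 0.07 SE, adjusted p = 0.011) but not within the shallower set (0.18, adjusted p = 0.076).

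**Figure D2:**
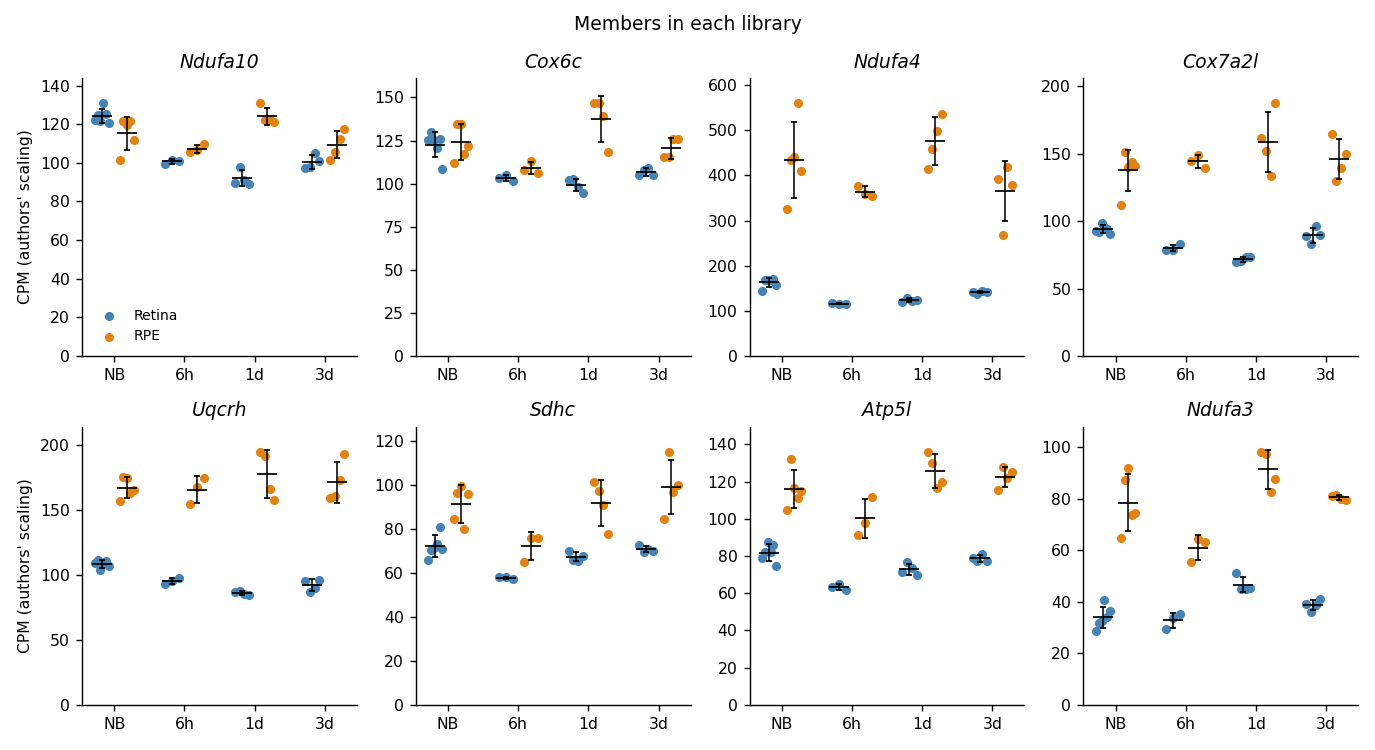
CPM on the authors' scaling (y axis, from 0) of 8 members in every library by time (x axis), retina in blue and RPE in orange, with mean ± SD in black. Retina Ndufa10 and Uqcrh lie lowest at 1d, Sdhc and Atp5l lowest at 6h, and Ndufa3 highest at 1d; the tissues were scaled separately, and the retina 1d differences of Sdhc and Atp5l from NB turn positive under library totals.

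Complex II, succinate dehydrogenase, joins the respiratory chain to the citric acid cycle and is coded by 4 nuclear genes. Sdhc, a membrane anchor that holds the ubiquinone pocket, measured 65.8 to 80.9 CPM (median 71.1, n = 6) in NB, 58.2, 58.1 and 57.2 at 6h, 70.3, 66.2, 65.7 and 67.8 at 1d and 72.6, 69.4, 70.9 and 70.2 at 3d. Only the 6h libraries lay below all of NB, with -0.32 ± 0.05 (SE, adjusted p = 7.3e-05), and the 1d difference was -0.09 ± 0.05 (SE, adjusted p = 0.094), turning to 0.07 under library totals. Sdha, the flavoprotein and the other member called at 6h (-0.18 ± 0.04 SE, adjusted p = 0.002), was -0.17 ± 0.04 (SE, adjusted p = 0.00073) at 1d and 0.00 under library totals. Sdhb and Sdhd, the iron-sulfur subunit and the other anchor, did not pass the test at any time against NB in retina (-0.08 and -0.03 at 6h). Sdhb was named with the other 3 for completeness, after values were seen.

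Complex III passes electrons from ubiquinol to cytochrome c. Uqcrh, its hinge protein beside cytochrome c1, measured 104 to 111 CPM (median 109, n = 6) in NB, 93.4, 95.4 and 97.7 at 6h, 87.1, 88.0, 85.8 and 84.4 at 1d and 95.4, 86.8, 90.1 and 96.4 at 3d. No library of the 3 times overlapped with NB, and 1d had the lowest mean. The differences were -0.18 ± 0.04 (SE, adjusted p = 0.0017), -0.33 ± 0.04 (SE, adjusted p = 5.1e-07) and -0.24 ± 0.04 (SE, adjusted p = 5.6e-05), and library totals took that of 3d to -0.08 (adjusted p = 0.082). Uqcr11, a small subunit, was lower at 6h (-0.23 ± 0.09 SE, adjusted p = 0.047), as were Uqcrq, Uqcrc2 and Uqcrfs1, the Rieske iron-sulfur protein, at -0.28, -0.17 and -0.17. These 3 were named after their values were seen, to complete the 5 of 8 that fell. Within the deeper set the calls of Uqcr11 (-0.08, adjusted p = 0.49), Uqcrfs1 (-0.09, adjusted p = 0.23) and Uqcrq (-0.16, adjusted p = 0.086) were lost, the first 2 of them also under library totals.

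Complex IV, cytochrome c oxidase, reduces oxygen to water. Ndufa4, first described in complex I and now counted as a subunit of complex IV, had the largest fall among the members called at 6h. It measured 144 to 172 CPM (median 168, n = 6) in NB, 117, 116 and 115 at 6h, 119, 129, 122 and 124 at 1d and 142, 138, 144 and 143 at 3d, with -0.49 ± 0.05 (SE, adjusted p = 3.2e-07), -0.40 ± 0.04 (SE, adjusted p = 4e-07) and -0.20 ± 0.04 (SE, adjusted p = 0.0013). The 6h and 1d libraries lay below all of NB, and the 3d libraries reached its lowest values; under library totals the 3d difference was -0.05 and did not pass. Cox7a2l, a factor that links complexes III and IV into supercomplexes, measured 90.8 to 98.4 CPM (median 93.6, n = 6) in NB, 78.6, 78.9 and 82.9 at 6h, 69.6, 70.1, 73.4 and 73.5 at 1d and 89.2, 82.9, 96.4 and 89.7 at 3d. Both 6h (-0.23 ± 0.05 SE, adjusted p = 0.00058) and 1d (-0.39 ± 0.04 SE, adjusted p = 2.1e-07) lay below NB without overlap, while 3d overlapped with it (-0.07 ± 0.04 SE, adjusted p = 0.17). From 1d to 3d Cox7a2l rose by 0.32 ± 0.05 (SE, adjusted p = 3.9e-05). Cox6c, named after its values were seen, differed by -0.25 ± 0.05 (SE, adjusted p = 0.00056) at 6h and -0.30 ± 0.04 (SE, adjusted p = 1.2e-05) at 1d.

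Several subunits of complex IV have tissue variants, and these did not move alike. Cox4i1, the common form of subunit 4, measured 170.3 to 196 CPM (median 184, n = 6) in NB and 161, 156 and 161 at 6h (-0.21 ± 0.05 SE, adjusted p = 0.0015), was at 0.00 at 1d and at 0.12 ± 0.04 (SE, adjusted p = 0.027) at 3d, a call that was lost within the shallower set (0.09). Cox4i2, the variant best known from lung and low oxygen, measured 11.7 to 19.7 CPM (median 14.4, n = 6) in NB, 11.7, 12.4, 10.6 and 10.8 at 1d and 21.0, 18.5, 17.2 and 17.1 at 3d. It fell at 1d (-0.34 ± 0.12 SE, adjusted p = 0.017, and -0.18 and not past under library totals) and stood higher at 3d (0.32 ± 0.12 SE, adjusted p = 0.03, not past within the shallower set at 0.20). The rise from 1d to 3d, 0.67 ± 0.13 (SE, adjusted p = 0.00071), held in every fit run. Among the other variants Cox6a1, Cox6b1, Cox7a2 and Cox8a differed by -0.19, -0.24, -0.25 and -0.16 at 6h, of which Cox6b1, Cox7a2 and Cox8a passed. The call of Cox8a was lost under library totals (adjusted p = 0.1) and within the deeper set (-0.09, adjusted p = 0.3), and that of Cox7a2 within the deeper set (-0.17, adjusted p = 0.051). Cox7b was at 0.00.

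On the authors' scaling over all libraries, complex V, ATP synthase, had the highest share of nuclear members called lower at 6h, 12 of 17, against 18.5% of all genes. Of its members, only Atp5g2, Atp5h, Atp5l and Atp5s were among the 18 called lower at 6h in all the fits listed above. At 1d 10 of the 17 nuclear members of complex V were higher than at 6h, as were 10 of 35 in complex I, against 17.5% of all genes. That comparison of times crosses the depth sets. Of the 28 members called higher in it, 1 kept the call with the depth set as a term. Atp5l, subunit g of the membrane part, measured 74.6 to 87.5 CPM (median 82.2, n = 6) in NB, 63.1, 64.7 and 61.8 at 6h, 71.3, 76.7, 73.6 and 69.9 at 1d and 79.0, 77.1, 81.1 and 77.6 at 3d. The 6h libraries lay below all others (-0.37 ± 0.05 SE, adjusted p = 8.4e-06), and the 1d difference of -0.17 ± 0.04 (SE, adjusted p = 0.004) was 0.00 under library totals. Atp5s, a coupling factor that RefSeq names Dmac2l, was counted in complex V by its symbol alone. It measured 8.54, 8.10 and 8.84 CPM at 6h against 9.91 to 12.3 CPM (median 11.8, n = 6) in NB (-0.41 ± 0.09 SE, adjusted p = 0.0011). Atp5e, the epsilon subunit of the rotor, differed by -0.35 ± 0.09 (SE, adjusted p = 0.0054), but by -0.14 within the deeper set, where it did not pass. The rotor ring of subunit c is coded by 3 genes for the same mature protein. Atp5g2 measured 50.6 to 62.3 CPM (median 55.9, n = 6) in NB, 42.9, 47.8 and 49.8 at 6h and 63.8, 59.5, 63.2 and 61.2 at 1d. It was the lowest at 6h (-0.26 ± 0.06 SE, adjusted p = 0.0022), higher than NB at 1d (0.14 ± 0.05 SE, adjusted p = 0.034, with adjusted p = 0.052 within the shallower set), and higher at 1d than at 6h (0.40 ± 0.06 SE, adjusted p = 6.8e-05), the latter in every fit run. Atp5g3 fell at 6h (-0.17 ± 0.05 SE, adjusted p = 0.0075) but not within the deeper set (-0.09, adjusted p = 0.22), and Atp5g1 differed by 0.04, 0.11 and 0.04 without passing.

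At 1d 27 of 80 nuclear members fell and 3 rose in retina against NB, with a median of -0.07, and over all members 35.4% were called, fewer than the 51.5% of all genes, and 32.3% were called lower, against 27.5%. Complex I held 14 of the 27, complexes II to V 1, 2, 5 and 5. At 3d 12 nuclear members fell and 2 rose (median -0.03), and 18.8% of all members were called against 43.2% of all genes, 16 of them lower against 23.9%. The direction of these counts depends on the scaling: library totals shift the median of all genes by 0.15 at 1d and 0.12 at 3d, and then 27 members were higher and 7 lower at 1d and 36 higher and 2 lower at 3d, with medians of 0.07 and 0.11 that lie below the shift of all genes. Under library totals 41.7% and 35.5% of all genes were called higher. Within the shallower set 27 fell and 1 rose at 1d (23.2% of all genes fell), and 11 fell and 0 rose at 3d (19.4% of all genes fell). Among the members called lower at 1d under library totals, with the depth set as a term, within the set and with edgeR and DESeq2 were Ndufa4, Ndufa10, Ndufb2, Uqcrh, Cox6c and Cox7a2l, and at 3d Ndufa10 was called lower in each of these fits. Rod markers, 14 of 14 lower at 1d and 13 at 3d, moved beside these counts, and their part in them was not tested.

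**Figure D3:**
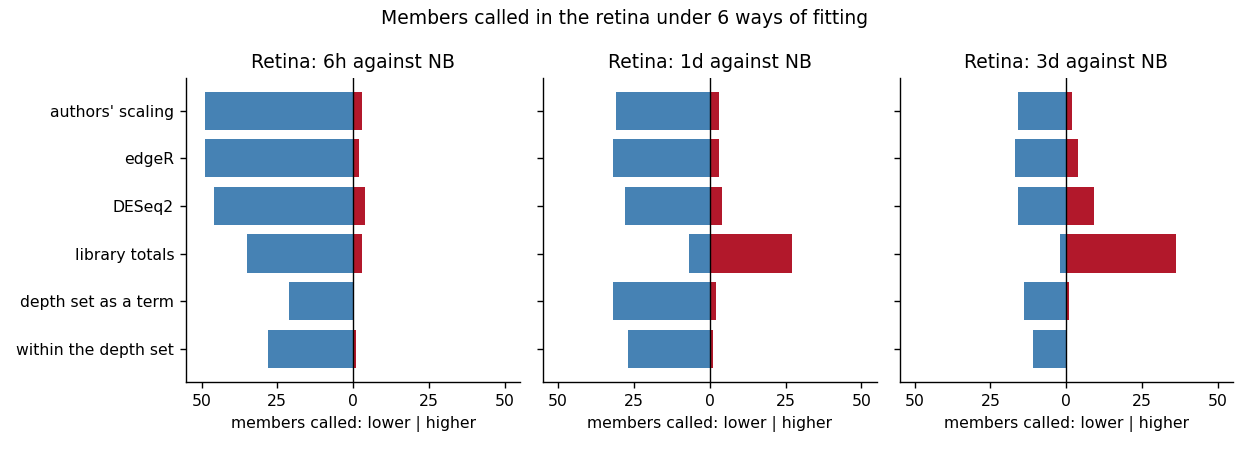
Number of members (x axis) that passed the test as higher (red, right) or lower (blue, left) in retina against NB under 6 fits (y axis), for 6h, 1d and 3d. At 6h lower calls lead in every fit (21 to 49), whereas library totals turn the balance to 27 higher and 7 lower at 1d and 36 higher and 2 lower at 3d.

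Between the later times, 28 nuclear members were higher and 5 lower at 1d than at 6h, against 17.5% of all genes called in each direction. That comparison crosses the depth sets, and with the depth set as a term 2 were higher and 2 lower. From 1d to 3d, both in the shallower set, 9 members rose and 1 fell, so that 10 of 96 were called against 21.4% of all genes, and 9.79% of all genes rose. Beside Cox4i2 and Cox7a2l, Ndufa4 rose between these times (0.20 ± 0.05 SE, adjusted p = 0.0059). mt-Nd6, the protein gene of the other DNA strand, rose by 0.75 ± 0.26 (SE, adjusted p = 0.048), from 19.5, 17.0, 14.1 and 15.5 CPM at 1d to 38.9, 34.7, 28.2 and 16.0 at 3d. Its NB libraries ran from 14.7 to 37.5 CPM and overlapped with both. The call of mt-Nd6 was lost under library totals (adjusted p = 0.055), within the shallower set (adjusted p = 0.053) and without any 1 of the 4 libraries of 1d or of the 3d libraries 1, 2 and 3. Without the 1d library 4, 5 members rose and 0 fell from 1d to 3d. The 3 processed copies of retina, Atp5l2-ps, Cox6c2 and Uqcrh-ps1, averaged 1.86 ± 0.579, 1.404 ± 0.224 and 1.21 ± 0.404 CPM in NB, and none passed against NB; Uqcrh-ps1 was lower at 1d than at 6h (-0.67 ± 0.21 SE, adjusted p = 0.019). Their reads can stem from the parent genes.

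The 13 mitochondrially coded genes are cut from long transcripts of both strands of mitochondrial DNA. Per kilobase of gene, mt-Co1, the catalytic subunit of complex IV, was the highest in retina NB at 5749 ± 369 CPM per kb (SD, n = 6), followed by mt-Cytb at 5219 ± 363, mt-Nd1 at 3613 ± 427, mt-Nd2 at 2309 ± 253, mt-Nd5 at 1624 ± 146 and mt-Nd4 at 1433 ± 102. A lower tier held mt-Co2 at 285 ± 41.6, mt-Atp8 at 276 ± 64.4, mt-Co3 at 216 ± 38.5 and mt-Atp6 at 208 ± 40.9 CPM per kb. Their NB ranges overlap, but the genes were read in the same libraries, and their order within libraries was not tested. Lowest were mt-Nd3, mt-Nd4l and mt-Nd6 at 75.7 ± 12.5, 65.2 ± 7.69 and 48.4 ± 17.5. In RPE NB mt-Co1 (7858 ± 1216) and mt-Cytb (7029 ± 1067) also led and mt-Nd6 (26.5 ± 4.92) was the lowest, on a separately scaled table. The nuclear genome holds copies of mitochondrial DNA and some of these genes overlap (mt-Atp8 and mt-Atp6 by 43 bases, mt-Nd5 and mt-Nd6 by 14, mt-Nd4l and mt-Nd4 by 7), so reads of single genes are uncertain and the order is that of counted reads.

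In retina at 6h 3 of the 13 mitochondrial genes were called higher and 0 lower against NB, with a median of 0.03. That is 23.1% higher, against 16.9% of all genes. The 3 were mt-Co3 (0.36 ± 0.11 SE, adjusted p = 0.012), mt-Atp6 (0.31 ± 0.11 SE, adjusted p = 0.038) and mt-Co2 (0.25 ± 0.09 SE, adjusted p = 0.042), neighbours on the heavy strand. Their values followed the depth set. mt-Co3 measured 229, 197 and 221 CPM at 6h, 202 and 209 in the deeper NB libraries and 172, 143, 139 and 153 in the shallower ones. Within the deeper set the differences were 0.06, -0.02 and 0.01, and none passed. In that fit mt-Atp8, which overlaps with mt-Atp6 and lies beside mt-Co2, was called lower (-0.53, adjusted p = 0.0056), and it was also with the depth set as a term. On the authors' scaling over all libraries mt-Atp8 stood at -0.14 and did not pass. At 1d all 13 lay below 0 (median -0.15) and 4 were called lower, and at 3d 4 were called lower (median -0.14). That is 30.8% at each time, against 27.5% of all genes called lower at 1d and 23.9% at 3d. mt-Nd4, a membrane-arm core subunit of complex I, was lower at 1d (-0.29 ± 0.06 SE, adjusted p = 0.00045) and 3d (-0.25 ± 0.06 SE, adjusted p = 0.0023), with 1588, 1709.5, 1541 and 1592 and 1666, 1644, 1669 and 1632 CPM against 1872 to 2166 CPM (median 1895, n = 6) in NB, and neither group overlapped with NB. mt-Cytb (-0.26 and -0.27) and mt-Nd5 (-0.24 and -0.27) were also called lower at both times. mt-Nd4l was called lower at 1d (-0.27) and mt-Nd2 at 3d (-0.21). Within the shallower set mt-Nd4 kept its call at both times (limma, adjusted p = 0.0053 and 0.022). The calls of mt-Cytb (adjusted p = 0.084 and 0.082), mt-Nd5 (0.081 and 0.053), mt-Nd4l (0.16) and mt-Nd2 (0.22) were lost there. mt-Nd6 was called lower at 1d in that fit (-0.69, adjusted p = 0.040). Under library totals 0 of 13 were called at 1d or at 3d, with limma in both cases.

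**Figure D4:**
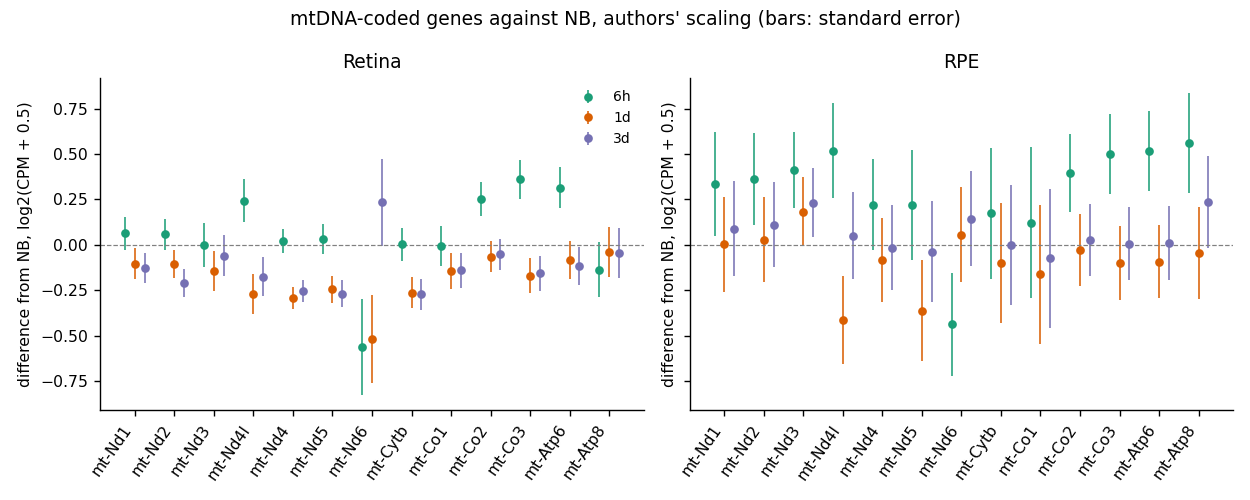
Difference from NB on the log2(CPM + 0.5) scale with its SE for the 13 mitochondrially coded genes, at 6h, 1d and 3d in retina and RPE. In retina mt-Co3, mt-Atp6 and mt-Co2 lie above 0 at 6h, calls that are lost within the deeper set. mt-Nd4, mt-Cytb and mt-Nd5 lie below 0 at 1d and 3d, calls that are lost under library totals. Those of mt-Cytb and mt-Nd5 are also lost within the shallower set. No RPE point passed the test.

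Summed over genes, mitochondrial transcripts made up 2.25% to 2.76% of counted reads in retina and 1.91% to 4.72% in RPE. The 80 nuclear protein genes took 0.643% to 0.714% of reads in retina NB, 0.613% to 0.626% at 6h, 0.667% to 0.736% at 1d and 0.706% to 0.751% at 3d. Thus 6h lay below every NB library, and 1d and 3d overlapped with NB or exceeded it. Mitochondrial over nuclear reads, a ratio that no scaling changes, was 3.94 to 4.30 in the 5 deeper retina libraries, NB A1 and NB A2 included, and 3.204 to 3.59 in the 12 shallower ones. In RPE the ratio was 3.95 to 4.85 in the 4 deeper libraries and 2.07 to 3.97 in the 12 shallower ones. In retina the ratio thus followed the depth set without overlap, and in RPE the ranges of the sets touched; the part of the depth set in the mitochondrial values was not tested further than by the fits given.

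**Figure D5:**
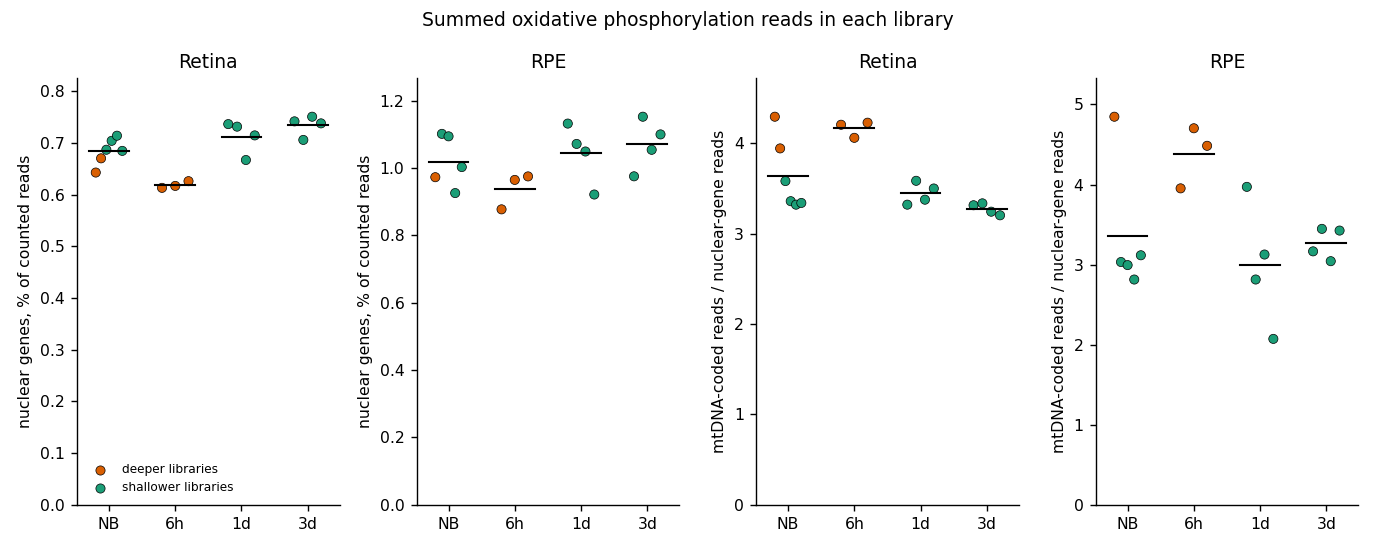
Reads of nuclear members as a percent of counted reads and the ratio of mitochondrial to nuclear member reads (y axes, from 0) in each retina and RPE library by time (x axis), with deeper libraries in orange, shallower ones in green and group means as bars. In retina the 3 libraries of 6h hold the lowest nuclear shares (0.613% to 0.626%), and the ratio is 3.94 to 4.30 in deeper and 3.204 to 3.59 in shallower libraries.

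In RPE no member passed the test against NB at any time. The counts called by limma were 0 of 101 at 6h, 1d and 3d, against 1.46%, 5.61% and 0.18% of all genes, with 31, 10 and 2 members at an unadjusted p under 0.05. With edgeR 0 were called at each time, and with DESeq2 8 at 6h, against 7.48% of all genes, and 0 at 1d and 3d. The nuclear medians were -0.20, 0.08 and 0.02, and those of the mitochondrial genes 0.37, -0.08 and 0.03. At 6h 73 of 81 nuclear members lay below 0. Beside these values, 1 of 12 RPE markers was lower and 3 of 9 cone markers were higher in RPE at 6h, and 5 were lower and 4 higher at 1d. Microglia and macrophage markers summed to 360.2 to 387 CPM in RPE NB, 236 to 281 at 6h, 198 to 257 at 1d and 373 to 463 at 3d. The part of these markers was not tested. One NB library decided this result: without NB A1, the only NB library of the deeper set, 20 nuclear members fell at 6h and 0 members rose, against 2.95% of all genes called lower, and the nuclear median was -0.24. In that fit every NB library is in the shallower set and every 6h library in the deeper one, so that time and depth set cannot be told apart. With the depth set as a term 0 members were called and the nuclear median was -0.04. NB A1 had a nuclear share of 0.973% of reads, within the 0.878% to 0.976% of 6h. NB B3, of the shallower set, also lay within that range, at 0.926%. At 1d and 3d 0 were called without it as well.

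Atp5e shows how NB A1 stands in RPE. Its values were 69.7, 130.0, 120.4, 121 and 104 CPM in NB, 80.6, 87.9 and 86.1 at 6h, 128, 138, 120.5 and 147 at 1d and 110.0, 94.9, 107 and 104 at 3d, the first NB value being that of NB A1. The 3 libraries of 6h lie below the other 4 of NB and above NB A1. The 6h difference was -0.33 ± 0.15 (SE, adjusted p = 0.28) with NB A1 and -0.48 ± 0.09 (SE, adjusted p = 0.013) without it. Cox6a1, the common form of subunit 6A, went from 136, 198, 188, 186 and 174 in NB to 133, 143 and 139 at 6h (-0.43 ± 0.08 SE, adjusted p = 0.012 without NB A1), and Ndufa2 differed by -0.46 ± 0.13 (SE, adjusted p = 0.047) without it. Uqcrc1 and Ndufs3, named after their values were seen, differed by -0.45 ± 0.08 (SE, adjusted p = 0.012) and -0.46 ± 0.09 (SE, adjusted p = 0.013) without it. With the depth set as a term, which compares 6h with NB A1 alone, the differences of Uqcrc1, Ndufs3, Cox6a1 and Atp5e were positive (0.12, 0.04, 0.03 and 0.28), that of Ndufa2 was -0.05, and none passed. NB A1 also had the highest sum of striated muscle markers among RPE libraries (677 CPM, the others 49.6 to 339), and the part of this in its values was not tested. From 6h to 1d 8 members rose and 0 fell in RPE (background 1.77% higher), led by Ndufa2 (0.66 ± 0.14 SE, adjusted p = 0.028), Atp5e (0.65 ± 0.16 SE, adjusted p = 0.042) and Ndufa3 (0.58 ± 0.11 SE, adjusted p = 0.017). That comparison crosses the depth sets: 0 were called with the depth set as a term or under library totals, and 34 rose and 2 fell without NB A1 (5.19% of all genes rose). From 1d to 3d 0 members were called with limma, against 6.58% of all genes, and 2 fell without NB A1.

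Tissue variants of complex IV differed in level between the tables, which were scaled separately. Cox8b, a form found in striated muscle, averaged 66.8 ± 22.4 CPM in RPE NB and 1.44 ± 0.326 in retina NB, whereas Cox4i2 averaged 2.63 ± 0.704 in RPE and 14.8 ± 2.89 in retina. Cox6b2, best known from testis, averaged 28.2 ± 7.56 and 6.78 ± 0.258 in RPE and retina. Cox7a1, the muscle form of subunit 7A, averaged 5.76 ± 1.06 and 1.18 ± 0.232. Cox6a2, the muscle form of subunit 6A, was in the RPE table alone, at 10.5, 5.76, 2.67, 1.24 and 1.38 CPM in NB and at 7.98 CPM in the 3d library 2. The striated muscle markers summed to 677, 338, 148, 93.6 and 59.7 CPM in the NB libraries in that order and to 339 in the 3d library 2, so that Cox6a2 ran beside them. They summed to 6.55 to 11.4 CPM in all retina libraries.

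A direct test of the tissue difference called a smaller share of members than of all genes at each time. The response of RPE minus that of retina, each against its own NB, was tested in 1 fit over 15105 genes. For the nuclear members at 6h this difference had a median of -0.002, beside medians of -0.18 in retina and -0.20 in RPE. At 6h 1 of 96 members differed, Ndufb8 (0.28 ± 0.09 SE, adjusted p = 0.03; -0.20 in retina and 0.08 in RPE), and 17.6% of all genes did. That call was lost without retina 6h library 1, retina NB A2, RPE 6h library 3 or RPE NB B2. At 1d 13 members differed, all higher in RPE, against 9.66% of all genes in that direction. In either direction 13.5% of members differed at 1d, against 21.7% of all genes. Among the 13 were Cox7a2l (0.59 ± 0.11 SE, adjusted p = 0.00023), Ndufa4 (0.55 ± 0.15 SE, adjusted p = 0.0091) and Ndufa10 (0.54 ± 0.07 SE, adjusted p = 3.4e-06). In RPE, where none of them passed against NB, these 3 stood at 0.20, 0.15 and 0.11. At 3d 3 members differed, among them Uqcrh (0.27 ± 0.09 SE, adjusted p = 0.035) and Ndufa10 (0.23 ± 0.07 SE, adjusted p = 0.034), against 12.2% of all genes. Under library totals 3 were higher and 2 lower in RPE at 1d, and 0 differed at 3d. The 3d count was 1 without retina NB A2, retina 3d library 1 or 2, RPE NB B4 or RPE 3d library 3, and 0 without RPE 3d library 4. Without RPE NB A1 8 differed at 6h (3 higher, 5 lower) and 7 at 3d (5 higher, 2 lower). The RPE expression of Ndufa10 in single libraries was 102, 122, 119, 122 and 112 CPM in NB, 106, 107 and 109.6 at 6h, 131, 122, 122 and 121 at 1d and 102, 106, 112 and 117 at 3d, and all groups overlapped with NB.

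Assembly factors build the complexes without staying in them. In retina at 6h 11 of 18 complex I factors fell and 2 rose (median -0.21), and 4 of 4 fell for complex II (-0.45), 4 of 6 for complex III and 12 of 23 for complex IV, with 0 rising in these 3 lists. Of 5 complex V factors 0 passed. At 1d 6, 2, 2 and 3 genes of the lists for complexes I to IV were lower, and at 3d 6, 2, 2 and 3, while 2 complex V factors rose at 3d. Against the 35.4%, 51.5% and 43.2% of all genes called at 6h, 1d and 3d, the complex I factors had 72.2%, 38.9% and 33.3% called and the complex IV factors 12, 3 and 4 of 23, so that both lists lay above the background at 6h and below it later. Sdhaf4, which guards the flavinylated SDHA, differed by -0.60 ± 0.10 (SE, adjusted p = 0.0002) at 6h, and Uqcc3, needed for cytochrome b, by -0.57 ± 0.08 (SE, adjusted p = 3.4e-05). Ndufaf6 went the other way, from 6.13 ± 1.08 CPM in NB to 9.78 ± 0.503 at 6h and 10.5 ± 0.488 at 1d (0.65 ± 0.11 SE, adjusted p = 0.00021 and 0.74 ± 0.10 SE, adjusted p = 7.3e-06). Among the 77 mitochondrial ribosomal proteins, which translate the mitochondrial messages, 29 fell and 1 rose at 6h (median -0.15), 13 fell and 9 rose at 1d, and 10 fell and 0 rose at 3d. In either direction these are 39.0% called at 6h, 28.6% at 1d and 10 of 77 at 3d. That is near the share of all genes at 6h and below it at 1d and 3d. The calls at 6h were mostly in 1 direction, and the 29 of 77 that fell compare with 18.5% of all genes called lower. At 1d and 3d 27.5% and 23.9% of all genes were called lower. With the depth set as a term, 4 complex I factors, 2 complex IV factors and 10 ribosomal genes were lower at 6h. In that fit 12.9% of all genes were called lower. Library totals turned the later counts, with 37 ribosomal genes higher and 2 lower at 1d and 21 higher and 2 lower at 3d, and 2 higher and 1 lower among the complex I factors at 1d. With that scaling 41.7% of all genes were called higher at 1d and 35.5% at 3d, so that the turn is not particular to these lists. In RPE these lists gave 1 lower at 6h and 5 higher at 1d in all, and 0 at 3d.

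Among the genes that govern mitochondrial biogenesis, the coactivator genes Ppargc1a and Ppargc1b and the receptor gene Esrrb were lower in retina at 1d and 3d, also under library totals, while Pprc1, the third coactivator gene of the PGC-1 family, was higher at 6h and 1d. Ppargc1a, the coactivator PGC-1alpha that drives mitochondrial biogenesis, averaged 68.7 ± 2.35 CPM in retina NB, 81.7 ± 2.77 at 6h, 40.6 ± 2.64 at 1d and 51.3 ± 3.59 at 3d. It rose at 6h (0.25 ± 0.06 SE, adjusted p = 0.0018) and fell at 1d (-0.75 ± 0.05 SE, adjusted p = 4.8e-10) and 3d (-0.42 ± 0.05 SE, adjusted p = 3.2e-06). Its relative Ppargc1b fell at 1d (-1.24 ± 0.12 SE, adjusted p = 4.7e-08) and 3d (-0.56 ± 0.12 SE, adjusted p = 0.00085), and at 6h it stood at -0.12. Pprc1 averaged 31.5 ± 2.59 CPM in NB, 54.2 ± 2.43 at 6h, 50.6 ± 2.76 at 1d and 30.7 ± 0.487 at 3d. It rose at 6h (0.77 ± 0.06 SE, adjusted p = 2.1e-08) and 1d (0.68 ± 0.06 SE, adjusted p = 1e-08), without overlap with NB, and was back at -0.04 at 3d. Esrrb, an estrogen-related receptor prominent in rods, averaged 521 ± 46.5, 467 ± 29.5, 215 ± 56.8 and 257 ± 31.7 CPM in the 4 groups, with -1.30 ± 0.12 (SE, adjusted p = 1.8e-08) at 1d, beside the fall of the rod markers. Nrf1, the factor whose letters stand before Atp5g2, was lower at each time (-0.19, -0.33 and -0.32, adjusted p = 0.0073, 1.4e-05 and 3.1e-05). Gabpa, the ETS partner of GABP, passed at 3d alone of the 3 times (-0.27 ± 0.06 SE, adjusted p = 0.00078). Esrra was lower at 6h (-0.22, adjusted p = 0.014) and Esrrg at 1d and 3d (-0.32 and -0.13, the latter positive under library totals). Tfam, which packs mitochondrial DNA, and Polrmt, its RNA polymerase, did not pass at any time against NB (-0.16, -0.12 and -0.11, and 0.13, 0.09 and 0.04).

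Over the list of 19 nuclear regulators 8 rose and 3 fell at 6h in retina, 4 rose and 11 fell at 1d, and 1 rose and 12 fell at 3d, with medians of 0.04, -0.32 and -0.23. The shares called, 57.9%, 78.9% and 68.4%, compare with 35.4%, 51.5% and 43.2% of all genes. Under library totals 10 fell and 5 rose at 1d and 8 fell and 3 rose at 3d. In that fit 2448 of 16926 genes were called lower at 1d and 1799 at 3d, while 41.7% and 35.5% were called higher. Of 29 genes for mitochondrial transcription and DNA 9 fell and 1 rose at 6h, 8 and 3 at 1d, and 11 and 1 at 3d. In either direction 34.5%, 37.9% and 41.4% were called, at or below the 35.4%, 51.5% and 43.2% of all genes. The 9, 8 and 11 of 29 that fell compare with 18.5%, 27.5% and 23.9% of all genes called lower. Polg2, the accessory subunit of the mitochondrial DNA polymerase, averaged 60.0 ± 3.95 CPM in NB and 26.0 ± 4.57 at 1d (-1.20 ± 0.09 SE, adjusted p = 9.8e-10), and Lrpprc, which stabilises mitochondrial messages, 131 ± 4.87 and 87.5 ± 1.87 (-0.58 ± 0.04 SE, adjusted p = 1.3e-09). Cycs, the cytochrome c carrier between complexes III and IV, differed by -0.13, -0.12 ± 0.05 (SE, adjusted p = 0.042) and -0.20 ± 0.05 (SE, adjusted p = 0.0018), and the 1d value turned positive under library totals. Cyc1, cytochrome c1 of complex III, which the symbol rule leaves out, did not pass (-0.10, -0.04 and -0.06). Of 24 citric acid cycle genes 8 fell and 2 rose at 6h, 7 and 3 at 1d, and 7 and 2 at 3d. In either direction 41.7%, 41.7% and 37.5% were called, near or below the shares of all genes. The 8, 7 and 7 of 24 that fell compare with 18.5%, 27.5% and 23.9% of all genes called lower. Library totals turned the counts of this list to 15 higher and 1 lower at 1d and 13 higher and 0 lower at 3d, where 41.7% and 35.5% of all genes were called higher. In RPE 2 regulators passed at 1d, Pprc1 (0.49 ± 0.10 SE, adjusted p = 0.0073) and Ppargc1a (-0.78 ± 0.20 SE, adjusted p = 0.033).

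In the authors' deposited table of comparisons with NB, 0 of the members had a p-value whose Benjamini-Hochberg adjusted form was under 0.05 in either tissue at any time, and 0 had an unadjusted p under 0.05. The same table held 852, 1839 and 712 such genes in retina at 6h, 1d and 3d and 9, 216 and 13 in RPE. The file headers do not state what these p-values test. From the column names they are taken to test each gene against some fold threshold, of unknown size, and not against no difference. The members' log2 fold changes in the authors' deposited table ran from -0.64 to 0.45 in retina at 6h and from -0.59 to 0.47 at 1d.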

How the data were processed

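RNA libraries of retina and RPE, 33 in all, were used. The submitters' processing notes name Trimmomatic, STAR, edgeR and GRCm38, without versions; the ATAC part was not analysed here. The deposited signal values are CPM that the authors scaled by effective library sizes, per the file headers and the values, separately for each tissue. All of them (100% of 287810 retina and 267424 RPE values) were whole reads within 0.01 of a read. The authors' deposited log2 fold changes and p-values, per the file headers, compare each time with NB.

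On log2(CPM + 0.5), limma 3.58.1 (R 4.3.3) was fitted with a mean-variance trend to all groups of a tissue. Tested genes reached a CPM of 1 in 3 or more libraries (16926 in retina, 16712 in RPE), and Benjamini-Hochberg adjustment ran over all of them, with a threshold of 0.05. The added 0.5 understates changes of low genes. The tissue difference was an interaction in 1 fit that treated retina and RPE libraries as independent, so its p-values do not allow for mice shared between tissues. Errors of CPM are SD and those of differences SE. On the recovered reads edgeR 4.0.16 called 6374, 8599 and 7398 genes in retina and 383, 960 and 28 in RPE at 6h, 1d and 3d against NB.

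Genes named were the mitochondrial members, up to 5 called members in each direction per time and tissue, up to 3 per contrast of times or tissues, the leading nuclear member of each complex, paralogs of one subunit, up to 3 genes of each other list and a set of regulators; others were named after their values were seen, as said there; some genes that this rule names are counted but not reported here. The members and lists were chosen with earlier results of these data known. Alternatives were pseudocounts of 0.1 and 2, no filter, other scalings, edgeR, DESeq2 1.42.0, the depth set as a term or alone, pairs of groups alone, a replicate block and leaving out each library. The letters A and B of NB libraries come from column names, which give the NB group and not single samples. The fitting script was tested on simulated data.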

Additional observations from a re-analysis of the deposited data

Results flagged for a closer look

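Of 291 groups of 4 to 10 libraries examined for a single value far from the others, 14 held one, and chance gives about 1 in 20 groups, or 14.55 here. In RPE NB the library NB A1 stood apart in 4 measures, with a mitochondrial to nuclear ratio of 4.85 (the others 2.81 to 3.12), mt-Nd2 at 3109 CPM (1972 to 2273), mt-Nd5 at 6187 CPM (3180 to 3731) and Cox7a2l at 112 CPM (140.1 to 151). In retina NB the library NB A2 had mt-Nd3 at 34.7 CPM, with the others at 21.7 to 25.7. In retina at 1d, library 1 had Ndufa3 at 51.2 CPM (44.9 to 45.4) and Cox8b at 0.746 CPM (1.82 to 1.89), and library 3 had Cox6b2 at 7.07 CPM (5.05 to 5.31). In retina at 3d, library 3 had mt-Nd5 at 2483 CPM (2434 to 2438). In RPE at 1d, Ndufa10 was 131 CPM in library 1 (121 to 122) and Cox7a2 was 115 CPM in library 2 (104 to 105). In RPE at 3d, library 2 had Cox6a2 at 7.98 CPM (1.12 to 1.47) and Atp5s at 12.1 CPM (10.4 to 10.6), and library 1 had Atp5h at 170.1 CPM (193 to 194).

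The responses of the tissues differed by the interaction test for Ndufb8 at 6h (0.28, RPE minus retina on the log2 scale), for Cox7a2l (0.59), Ndufa4 (0.55) and Ndufa10 (0.54) at 1d, and for Uqcrh (0.27) and Ndufa10 (0.23) at 3d.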

How the results depend on the processing

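No count of called members moved by over 1.5 times under the other pseudocounts, no filter, TMM rescaling, edgeR or fits of a pair of groups. Counts of called members depended on the depth set and the scaling, and the cause was not tested. In retina they were 21 (depth set as a term) and 29 (within the set) instead of 52 at 6h, 38 (library totals, and reads of nuclear genes) and 11 (within the set) instead of 18 at 3d, and 4 instead of 41 for 1d against 6h with the depth set as a term. In RPE, DESeq2 called 8 at 6h. RPE 1d against 6h gave 0 under library totals, reads of nuclear genes and the depth set as a term and 40 with DESeq2, instead of 8. RPE 3d against 1d gave 2 with the depth set as a term and 1 within it, instead of 0. Tissue differences were 5 at 1d under both rescalings (13 before), 0 at 3d under both (3 before), and at 6h 3 under both rescalings and the depth set as a term and 7 with DESeq2 (1 before). The replicate numbers were not shown to pair the samples within a tissue. Deviations of libraries from their group means were also correlated between retina and RPE. At 3d each retina library correlated best with the RPE library of its number (0.27, 0.19, 0.085 and 0.15). The highest correlations with other numbers were -0.063, -0.076, 0.062 and 0.11. At 6h only library 1 and at 1d only library 4 did so. Whether retina and RPE libraries shared mice was not tested. The replicate block gave 2 for RPE 1d against 6h, 2 for the tissue difference at 6h, and 50 of 52 in retina at 6h.

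With 1 library left out at a time, counts ran from 34 to 53, 29 to 35 and 13 to 24 in retina at 6h, 1d and 3d, 26 to 42 for 1d against 6h (26 without 6h library 1) and 5 to 10 for 3d against 1d. In RPE they ran from 0 to 20 at 6h, 0 to 0 at 1d and 3d, 0 to 36 for 1d against 6h and 0 to 2 for 3d against 1d. Tissue differences ran from 0 to 8 at 6h, 10 to 18 at 1d and 0 to 7 at 3d.

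With the depth set as a term, Atp5e and Cox6a1 of RPE 1d against 6h became -0.11 and -0.020, and mt-Co2 and mt-Atp6 of retina 1d against 6h became 0.039 and 0.11; mt-Atp6 at 6h was -0.024 in that fit and within the set. Library totals and reads of nuclear genes gave 0.0027 and 0.00091 for Ndufa10 in retina 1d against 6h. At 1d against NB they gave 0.00083 and 0.00045 for Idh3b, 0.019 and 0.019 for Cox7a2, 0.044 and 0.044 for Atp5h, 0.0027 and 0.0023 for Atp5l, and 0.048 and 0.047 for Cycs. At 3d they gave 0.026 and 0.024 for Esrrg and 0.044 and 0.043 for Idh3b.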
